A study of Mus musculus with 4 samples.

Results

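The regions described here were the TFCP2L1 binding regions of B16F0 cells that lay close to the start or end of a gene. B16F0 is a mouse melanoma cell line. Cells had received either DMSO, the vehicle, or 5 µM SX-682, which blocks signalling through CXCR1 and CXCR2, receptors of CXC chemokines. The labels give 24 h in one place and an overnight culture in another. Chromatin immunoprecipitation followed by sequencing (ChIP-seq) with an antibody against TFCP2L1 or with normal rabbit IgG was done once for each treatment, so that there were 4 libraries, 1 in each of 4 groups. Each TFCP2L1 library has a peak list, called by the authors with the IgG library of that treatment as control. With 1 library per group no difference between DMSO and SX-682 could be tested, and every value below compares those libraries, not the treatments.

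The SX-682 list of 443 peaks and the DMSO peaks that overlapped none of them by 1 bp formed a union of 460 regions. Of these, 206 had a start or end of any RefSeq gene inside them or within 2000 bp of either edge, and these 206 are called boundary regions. The other 254 regions were farther away and are used as the comparison. The last regions inside the limit lay 1953, 1960 and 1989 bp from a boundary of Gm51903, 2010320O07Rik and Gm40805, with fold enrichments of 15.6, 4.82 and 11.2. The first outside lay 2003, 2012 and 2016 bp from Gm12536, Gm46569 and Zhx1, with 5.82, 15.8 and 5.35. Fold enrichment is the authors' ratio of the scaled fragment pileup at the summit, the highest point of a peak, to the local IgG background, each with a pseudocount of 1. For regions in both lists the mean of the SX-682 and DMSO values was used. Distance to a gene boundary selected the regions, so it is given only as a description.

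TFCP2L1 belongs to the CP2 family of transcription factors, which bind DNA as oligomers through pairs of short half-sites spaced by a fixed gap, and it is best known for its part in the pluripotency network of mouse embryonic stem cells. A transcription factor bound near the 5′ end of a gene lies over or beside its promoter, the sequence from which RNA polymerase starts. Many mammalian promoters are rich in G, C and the dinucleotide CpG, and many serve a pair of genes that run away from each other.

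Of the 206 boundary regions, 66 overlapped by at least 1 bp a RefSeq promoter window (250 bases before to 50 bases after a transcript's start, GRCm38.p6). Such a window is called under the region, though part of it may lie outside. The sequences that follow are the 250 bases before the start, written 5′ to 3′ on the strand of the gene, and were taken from RefSeq. Capitals mark a GC box (GGGCGG), an ETS core (CCGGAAG) or a CP2 motif, the pair CCAG with 6 bases and CCAG again (CCAGNNNNNNCCAG), on either strand. The first set holds the promoters under the 5 strongest of these regions found in both lists, with the summit of the region given relative to the start. They had 52.4 to 68.8% GC, GC boxes in 3 of the 5 and no CP2 motif in these bases. Some stronger regions, such as those at Fut10, Wwox and Ints10, overlapped no promoter window and are not shown. Those at Fut10, Wwox and Ints10 had a gene boundary of unknown strand inside, 57, 97 and 101 bp from the summit. Windows were available for 186 of the 274 genes with a boundary at these 206 regions, so a region without one may still lie at a promoter. Adgrl1, which encodes an adhesion G protein-coupled receptor of the latrophilin family, lay at chr8:83899848-83900097 (plus strand), with the summit at -493. Kansl3, a subunit of the NSL histone acetyltransferase complex, lay at chr1:36369182-36369431 (minus strand), with the summit at -53. Cenpu, a centromere protein gene, lay at chr8:46551819-46552068 (plus strand), with the summit at -160. The predicted genes Gm2093 at chr15:3995789-3996038 (plus strand) and Gm26744 at chr16:21845866-21846115 (minus strand) had their summits at -32 and -31.
Adgrl1: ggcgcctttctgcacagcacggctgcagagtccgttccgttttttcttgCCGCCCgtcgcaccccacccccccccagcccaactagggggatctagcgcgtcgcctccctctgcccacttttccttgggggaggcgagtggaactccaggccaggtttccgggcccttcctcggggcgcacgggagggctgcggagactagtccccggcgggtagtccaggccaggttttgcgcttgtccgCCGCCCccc
Kansl3: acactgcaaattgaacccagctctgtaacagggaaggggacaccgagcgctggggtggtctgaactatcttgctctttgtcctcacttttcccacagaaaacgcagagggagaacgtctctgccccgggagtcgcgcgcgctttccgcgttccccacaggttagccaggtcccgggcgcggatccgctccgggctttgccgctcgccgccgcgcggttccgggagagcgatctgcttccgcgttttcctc
Cenpu: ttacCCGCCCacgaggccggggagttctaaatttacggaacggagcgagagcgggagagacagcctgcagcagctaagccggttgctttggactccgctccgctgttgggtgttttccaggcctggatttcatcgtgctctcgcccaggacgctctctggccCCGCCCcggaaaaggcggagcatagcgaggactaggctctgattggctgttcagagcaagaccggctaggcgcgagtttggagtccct
Gm2093: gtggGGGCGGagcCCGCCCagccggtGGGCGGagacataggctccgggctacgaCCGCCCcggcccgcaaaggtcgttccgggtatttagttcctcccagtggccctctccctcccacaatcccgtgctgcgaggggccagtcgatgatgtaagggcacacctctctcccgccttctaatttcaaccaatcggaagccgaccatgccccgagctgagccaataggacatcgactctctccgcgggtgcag
Gm26744: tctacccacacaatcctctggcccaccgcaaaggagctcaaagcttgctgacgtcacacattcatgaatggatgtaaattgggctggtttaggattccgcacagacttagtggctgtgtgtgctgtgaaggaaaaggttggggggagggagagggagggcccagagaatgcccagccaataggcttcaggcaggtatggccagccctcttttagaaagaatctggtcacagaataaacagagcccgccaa

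The next pair lay under the strongest of the regions in 1 list alone that overlapped a promoter window. Several stronger regions in SX-682 alone, such as that at Aars2, overlapped none and have no sequence here. The 5′ end of Aars2 itself lay inside its region, 44 bp from the summit. 2900041M22Rik, at chr11:117610997-117611246 (plus strand), was in the SX-682 list alone with a summit at -364, and 2410006H16Rik, at chr11:62602627-62602876 (plus strand), was in the DMSO list alone with a summit at -152. Both held 2 GC boxes and no CP2 motif in these bases. The region at 2900041M22Rik ended at the first printed base, so the GC boxes of that promoter lay outside it.
2900041M22Rik: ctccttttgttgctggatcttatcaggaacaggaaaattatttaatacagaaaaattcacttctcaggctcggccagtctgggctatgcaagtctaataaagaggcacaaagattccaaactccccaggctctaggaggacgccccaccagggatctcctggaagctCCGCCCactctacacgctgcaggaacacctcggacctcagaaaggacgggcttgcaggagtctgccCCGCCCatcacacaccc
2410006H16Rik: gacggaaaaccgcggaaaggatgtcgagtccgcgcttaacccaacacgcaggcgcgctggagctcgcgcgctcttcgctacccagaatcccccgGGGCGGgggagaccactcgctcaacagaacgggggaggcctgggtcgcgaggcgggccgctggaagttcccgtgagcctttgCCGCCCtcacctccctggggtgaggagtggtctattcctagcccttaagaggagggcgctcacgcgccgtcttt

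The last set holds the 3 promoters with the CP2 motif among those under a boundary region. The motifs of Ints4 and Ankrd13a lay inside their regions. That of Madd lay outside its region, chr2:91183176-91183389. Ints4 encodes a subunit of the Integrator complex, which processes small nuclear RNAs, and lay at chr7:97480706-97480955 (plus strand, summit at -71, both lists). Ankrd13a lay at chr5:114774698-114774947 (plus strand, summit at -239, SX-682 alone). Madd lay at chr2:91183048-91183297 (minus strand, summit at -281, both lists). That position is relative to the transcript start of the printed window. From the 5′ end of the whole gene the summit lay 678 bp downstream. Ints4 had a mean fold enrichment of 7.62, Ankrd13a of 6.82 and Madd of 6.17, so none of these promoters was among the strongest.
Ints4: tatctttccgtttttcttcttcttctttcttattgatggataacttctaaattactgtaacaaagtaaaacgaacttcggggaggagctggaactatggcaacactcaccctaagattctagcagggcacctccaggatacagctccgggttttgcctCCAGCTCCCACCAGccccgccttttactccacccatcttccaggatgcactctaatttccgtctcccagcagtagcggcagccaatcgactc
Ankrd13a: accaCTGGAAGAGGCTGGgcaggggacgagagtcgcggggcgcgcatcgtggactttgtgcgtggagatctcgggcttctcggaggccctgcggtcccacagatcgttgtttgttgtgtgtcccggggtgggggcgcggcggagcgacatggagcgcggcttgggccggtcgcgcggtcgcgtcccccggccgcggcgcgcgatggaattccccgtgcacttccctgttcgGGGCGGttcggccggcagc
Madd: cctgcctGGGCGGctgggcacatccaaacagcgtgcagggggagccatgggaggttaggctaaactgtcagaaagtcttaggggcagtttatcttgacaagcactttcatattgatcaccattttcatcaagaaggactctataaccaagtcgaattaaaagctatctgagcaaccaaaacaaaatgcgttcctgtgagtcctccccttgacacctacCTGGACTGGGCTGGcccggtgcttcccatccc

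The first comparison asked in which list each region had been called. Of the 206 boundary regions, 67 were in both lists (32.5%, 95% Wilson interval 26.5 to 39.2%), 130 in the SX-682 list alone (63.1%, 56.3 to 69.4%) and 9 in the DMSO list alone (4.37%, 2.32 to 8.09%). Over the whole union the corresponding shares were 26.7%, 69.6% and 3.7%. Among the 254 regions far from gene boundaries they were 22.0% (17.4 to 27.5%), 74.8% (69.1 to 79.7%) and 3.15% (1.60 to 6.09%). Boundary regions were thus more often in both lists than distant ones in these libraries, with intervals that overlap slightly. Intervals on shares and medians cover counting error only. A region in the SX-682 list alone has no DMSO value in the lists, and the weakest summit called in DMSO held 14 fragments, so the DMSO signal there is known only as not called.

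The share in both lists varied with the position and kind of the boundary. It was 42.4% (25 of 59, 30.6 to 55.1%) where the boundary lay inside the region and 28.6% (42 of 147, 21.9 to 36.3%) where it lay outside. Where the closest boundary was a 5′ end the share was 38.8% (45 of 116, 30.4 to 47.9%), and where it was a 3′ end 19.2% (5 of 26, 8.51 to 37.9%). With a protein-coding gene in the window it was 37.3% (60 of 161, 30.2 to 45.0%), and with a long non-coding RNA (lncRNA) gene but no protein-coding gene 17.9% (7 of 39, 8.98 to 32.7%). None of the 6 regions with neither kind of gene was in both lists. The intervals of each of these pairs overlap.

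**Figure D1:**
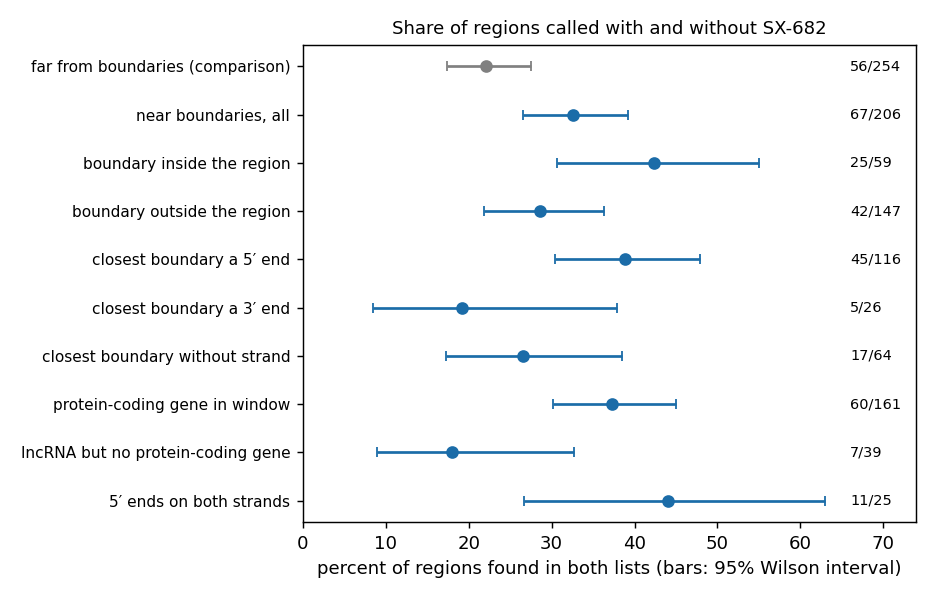
Percent of regions found in both the DMSO and the SX-682 list (x axis) for regions far from gene boundaries and for boundary regions split by the position and kind of the gene. Points are shares and bars 95% Wilson intervals, with the counts at the right; among the splits plotted the lowest share was 7 of 39 at lncRNA genes and the highest 11 of 25 where 5′ ends of genes on both strands lay in the window.

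The closest boundary was a known 5′ end in 116 of the 206 regions (56.3%, 49.5 to 62.9%), a 3′ end in 26 and of unknown strand in 64. Of the 142 with a known strand the 5′ end was thus the closer one in 81.7% (74.5 to 87.2%), a description for which no background share was computed. By list the share was 45 of 50 in both lists, 65 of 85 in SX-682 alone and 6 of 7 in DMSO alone. The median distance from the summit to the closest boundary was 274.5 bp (quartiles 103 and 802.5) over all 206 regions. It was 221 bp in both lists, 313.5 bp in SX-682 alone and 118 bp in DMSO alone. Of the 9 regions in DMSO alone, 8 had a summit within 250 bp of a boundary, against 36 of 67 in both lists and 54 of 130 in SX-682 alone. At the 116 regions by a 5′ end the median summit lay at -100.5 bases, upstream of it (quartiles -397.5 and 75.75), and 39 summits lay downstream.

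**Figure D2:**
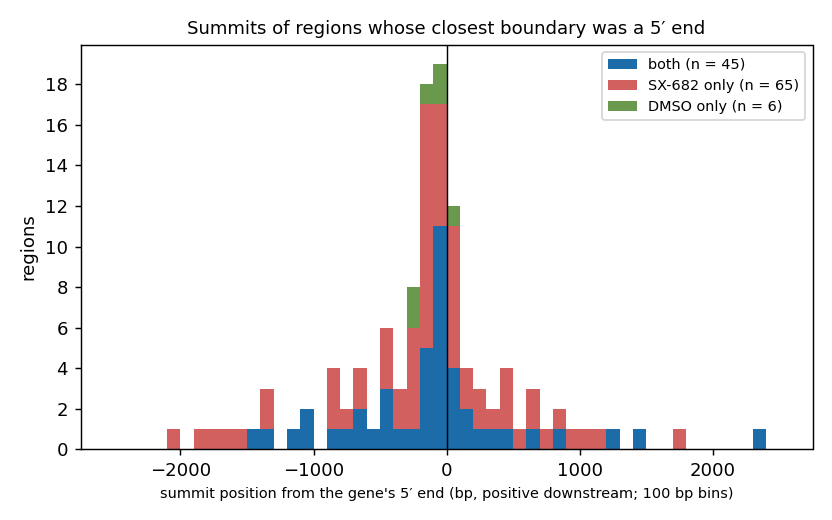
Number of boundary regions (y axis) by the position of the summit from the 5′ end of the closest gene (x axis, bp in bins of 100 bp), for the 116 regions whose closest boundary was a 5′ end, stacked by list. The tallest bins lie just upstream of the start, around the median of -100.5.

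The strongest boundary regions in both lists lay at genes of diverse function. Fut10, a member of the fucosyltransferase family, had 56 fragments at the DMSO summit and 62 at the SX-682 summit of chr8:31187033-31187470, with fold enrichments of 19.9 and 21.2. At Gpr61, an orphan G protein-coupled receptor gene, and Gnai3, which encodes an inhibitory G protein alpha subunit, chr3:108147731-108148183 had 46 and 74 fragments. At Wwox, which encodes a WW domain oxidoreductase, chr8:114439319-114439771 had 43 and 52. Those 3 held the first places by mean fold enrichment among regions in both lists.

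The region at chr8:83898922-83900080, beside Adgrl1 and Gm26721, spanned 1159 bp, the longest of the boundary regions, and had 56 and 55 fragments. Adamts4, which encodes a secreted metalloproteinase that cleaves aggrecan, had the highest fragment counts, 58 in DMSO and 92 in SX-682, at chr1:171262726-171263399. Cyb5r3, the NADH-cytochrome b5 reductase gene, had 47 and 76 at chr15:83153888-83154480. Both lay beyond a 1.5-fold ratio between the libraries once divided by depth, while the region beside Adgrl1 lay near equality.

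Ints10, another Integrator subunit gene, had 41 and 48 fragments at chr8:68793702-68793996, and the region near Gm51903 had 42 and 47 at chr11:69417466-69417781. Kansl3 had 44 and 55 at chr1:36369096-36369398. The region by Zfp609 and Trip4 had 39 and 53 at chr9:65827643-65828100, where Trip4 encodes a transcriptional coactivator. The mean fold enrichment of these 10 regions ran from 13.5 at Cyb5r3 to 20.6 at Fut10.

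Ranked by fold enrichment, the regions in the SX-682 list alone were led by the predicted gene Gm36510, at chr15:102730148-102730582, with 64 fragments and a fold enrichment of 18.6. Plk5, of the polo-like kinase family, had 38 fragments (13.2-fold) and Cpne4, of the calcium-binding copine family, also had 38 (12.7-fold). Aars2, the mitochondrial alanyl-tRNA synthetase gene, had 33 (11.5-fold), and Gapvd1, which regulates endocytic Rab proteins, had 32 (11.2-fold), as did the region near Gm40805. S100a10, a partner of annexin A2, had 31 fragments (10.8-fold) and 2900041M22Rik 43 (10.7-fold). The predicted gene Gm41858 had 34 (10.7-fold), and the region by Nat14 and Ssc5d had 30 (10.5-fold). Apart from Gm36510, they all lay below the 10 strongest regions of both lists. The median fold enrichment of the 130 regions was 7.1 (quartiles 6.36 and 8.46), against 7.35 (6.08 and 8.83) for the 190 distant regions in SX-682 alone.

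The 9 regions in the DMSO list alone had a median of 17 fragments, against a DMSO median of 25 at the boundary regions in both lists. The strongest lay in the promoter of 2410006H16Rik, a non-coding host gene with the small nucleolar RNA genes Snord49a, Snord49b and Snord65 in the window, at chr11:62602690-62602839, with 28 fragments and a fold enrichment of 7.58. Oga, which encodes the enzyme that removes O-linked N-acetylglucosamine from proteins, had 23 fragments (7.29-fold). The region between Fam227a and Cby1 had 20 (6.74-fold), where Cby1 encodes a beta-catenin antagonist. Gm15969 had 21 (6.69-fold), and the region by Rgl2 and Tapbp, the gene of the peptide-loading chaperone tapasin, had 16 (5.97-fold). Insr, the insulin receptor gene, had 15 (5.62-fold), Tex30 17 (5.58-fold), Gm10910 17 (5.53-fold) and Pigm, an enzyme of glycosylphosphatidylinositol anchor synthesis, 17 (5.48-fold). The median DMSO fold enrichment of the boundary regions in both lists was 7.53. The region at 2410006H16Rik lay just above it and the rest of the 9 below.

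The second comparison set the libraries side by side at the 67 boundary regions in both lists. Fragments at the summit had a median of 25 in DMSO (quartiles 20.5 and 33.5) and 34 in SX-682 (25 and 47.5). Divided by the filtered tags of each TFCP2L1 library, which numbered 32601907 in DMSO and 28958646 in SX-682, the signal was higher in SX-682 at 61 of the 67 regions, beside 91.9% over all 123 regions in both lists. The median log2 ratio was 0.44 (95% interval of the median 0.33 to 0.55). At the 56 distant regions in both lists it was 0.57 (0.50 to 0.69), with 52 of 56 higher in SX-682. At least 1.5-fold higher signal in SX-682 was found at 24 of 67 boundary regions (35.8%, 25.4 to 47.8%) and at 27 of 56 distant regions (48.2%, 35.7 to 61.0%), with 41.5% over all 123. On this scale none was at least 1.5-fold lower (0 of 67, upper bound of the Wilson interval 5.42%, and 0% over all 123). The boundary regions therefore differed from the background share by less than their counting interval. These counts were different on the scaled pileup, as given next.

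The ratio depended on what was divided. On the authors' pileup, which each list scales to its own IgG library by 0.907 in DMSO and 0.700 in SX-682, the median log2 ratio of the 67 regions was -0.10 (-0.21 to 0). There 25 of the 67 were higher in SX-682 (37.3%, 26.7 to 49.3%, beside 44.7% of all 123), 8 at least 1.5-fold higher (11.9%, 6.18 to 21.8%, beside 14.6%) and 5 at least 1.5-fold lower (7.46%, 3.23 to 16.3%, beside 7.32%). Among the distant regions 30 of 56 were higher, 10 at least 1.5-fold higher and 4 at least 1.5-fold lower. On the authors' fold enrichment 50 of the 67 were higher in SX-682 (beside 73.2% of all 123), 16 at least 1.5-fold higher (beside 30.1%) and 2 at least 1.5-fold lower (beside 1.63%). The median log2 ratio of fold enrichment was 0.26 (0.13 to 0.45), with the median fold enrichment 10.1 in SX-682 (quartiles 7.22 and 13.3) and 7.53 in DMSO (6.35 and 9.98). The local background behind it, in units of the scaled pileup, had a median of 1.11 in SX-682 and 2.00 in DMSO. It stood at the lowest value of the list at 33 of the 67 regions in SX-682 and at 22 in DMSO. Among the 56 distant regions it did so at 19 and 10. There the fold enrichment is a ratio to that floor. The IgG libraries held 20270519 filtered tags in SX-682 and 29584533 in DMSO. The scaled pileup is the fragments divided by TFCP2L1 tags and multiplied by IgG tags. Its log2 ratio therefore lies below the ratio per TFCP2L1 tag by the same amount at every region, set by these IgG numbers. The part of IgG depth in the background and in the fold enrichment was not tested. The direction of the difference between the libraries thus rests on the division by TFCP2L1 tags or by background.

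The highest log2 ratios, with counting intervals from the fragments alone, were at Gm40359 (22 fragments in DMSO and 62 in SX-682, log2 ratio 1.67, interval 0.94 to 2.44) and Stox2, which encodes a winged-helix domain protein (17 and 47, 1.64, 0.81 to 2.53). Rap2a, a Ras-related small GTPase gene, had 14 and 35 fragments (1.49, 0.56 to 2.50). Mbnl2, a splicing regulator, had 25 and 55 (1.31, 0.60 to 2.05) and Syt7, a calcium sensor of vesicle fusion, had 16 and 34 (1.26, 0.36 to 2.21). These 5 had few fragments in DMSO, between 14 and 25.

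The lowest ratios were at Gm31068 (28 and 20 fragments, log2 ratio -0.31, interval -1.22 to 0.57) and Slc35e4, a solute carrier gene (26 and 19, -0.28, -1.22 to 0.63). Polr1d, a subunit shared by RNA polymerases I and III, had 31 and 24 at its shared region with Lnx2 (-0.20, -1.03 to 0.62). Gng11, a G protein gamma subunit gene, had 31 and 25 (-0.14, -0.96 to 0.67), and Madd with Nr1h3, which encodes the liver X receptor alpha, had 20 and 17 (-0.06, -1.09 to 0.94). Each of these intervals includes 0.

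**Figure D3:**
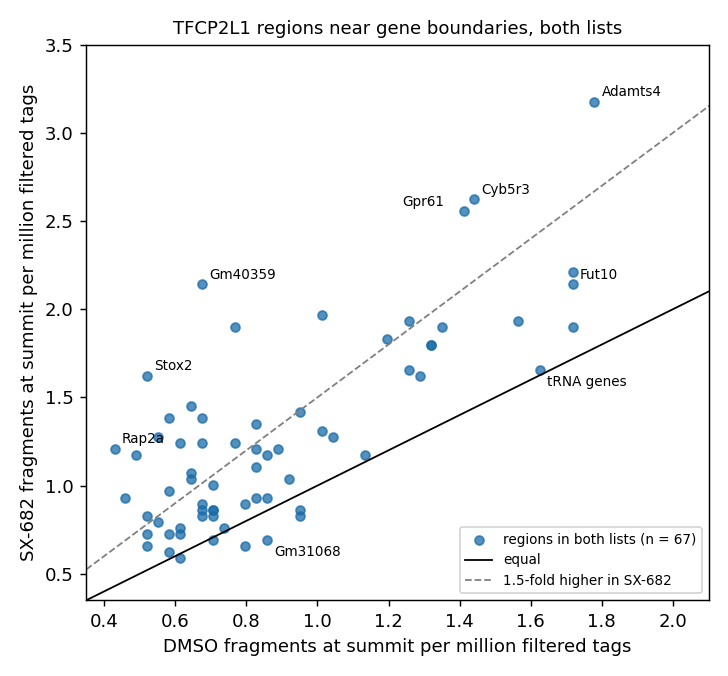
Depth-normalised fragments at the summit (fragments divided by filtered tags) in DMSO (x axis) and SX-682 (y axis) for the 67 boundary regions in both lists, 1 library each. The solid line marks equal signal and the dashed line 1.5-fold higher signal in SX-682; 61 points lie above the solid line, with Gm40359 and Stox2 farthest above it in ratio and the tRNA cluster close to it.

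Within the boundary regions, the median ratio was lower where the summit sat at the boundary. The median log2 ratio was 0.34 (0.24 to 0.45) at the 36 regions with a summit within 250 bp, 0.57 (0.29 to 0.86) at the 19 beyond 250 and up to 1000 bp and 0.62 (0.37 to 1.21) at the 12 beyond 1000 bp. The intervals of these medians overlap. The median fold enrichment was 8.66 (7.39 to 9.49) over the 59 regions with the boundary inside and 7.12 (6.82 to 7.57) over the 147 with it outside, with overlapping intervals. The former were also longer, with a median of 303 bp against 250 bp, and a longer region is more likely to contain a boundary. It was 7.39 (7.09 to 8.09) with a protein-coding gene and 7.57 (6.38 to 8.16) with a lncRNA gene alone. Over all boundary regions the median was 7.39 (7.07 to 7.86), and over the distant ones 7.56 (7.16 to 7.82).

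The 206 boundary regions touched boundaries of 274 genes, of 47038 on chromosomes 1 to 19 (0.583%). Protein-coding genes made up 190 of them, 0.92% of all 20661 (0.798 to 1.06%), and were 69.3% of the 274 (63.6 to 74.5%), beside 43.9% of the gene table. They stood in the window of 161 regions (78.2%, 72.0 to 83.3%). Genes for lncRNAs made up 64, which is 0.516% of 12408 (0.404 to 0.658%). A single pseudogene, Psenen-ps, was found among 8884 (0.0113%, 0.00199 to 0.0637%), so pseudogenes, at 18.9% of the table, were nearly absent. Pseudogenes and small RNA genes have near-identical copies elsewhere in the genome, how reads that align to several copies were handled is not given in the sources used here, and its part in these shares was not tested.

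Few boundary regions lay at small RNA genes. One region had all 4 of the transfer RNA genes found in its window, of 391 in the table (1.02%, 0.399 to 2.60%), beside 0.583% of all genes. Intervals over genes count genes that share a region one by one, so this one does not allow for a single region. The region lay at chr11:69123495-69123958 among n-TRtct4, n-TLtag3, n-TQctg6 and n-TKctt27. Next to it were Hes7, a repressor of the somite segmentation clock, and Aloxe3, an epidermal lipoxygenase gene. It had 53 fragments in DMSO and 48 in SX-682, a log2 ratio of 0.03 (-0.57 to 0.62), and fold enrichments of 15.4 and 11.5. This was the largest cluster of genes at any boundary region, with 7 genes in the window.

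Boundaries of 3 of the 931 small nuclear RNA genes (0.322%) lay at 3 regions, all in SX-682 alone. Of all 206 boundary regions, 63.1% were in SX-682 alone. Gm23649 had 23 fragments (8.16-fold), Gm25633 31 (4.54-fold) and Gm26439 25 (3.70-fold, the weakest of all 206). Of 1286 small nucleolar RNA genes 4 were found (0.311%), at 2 regions. These were the 2410006H16Rik promoter described above and Cpsf3, the endonuclease gene of mRNA 3′ end processing, with Itgb1bp1 and Gm25821 (27 fragments in SX-682 alone, 9.37-fold). Rny1, a Y RNA gene, had 37 fragments (8.06-fold) and Rn7s2, annotated as a small cytoplasmic RNA gene, 17 (5.95-fold), both in SX-682 alone. Of the 2 miRNA genes found, of 1136 (0.176%), Mir7660 lay at Cand2 (45 fragments in SX-682 alone, 10.4-fold) and Mir12191 at Fam53c (19 in DMSO and 21 in SX-682). No rRNA gene had a region, of 61 in the table, with an upper bound of the Wilson interval of 5.92%.

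**Figure D4:**
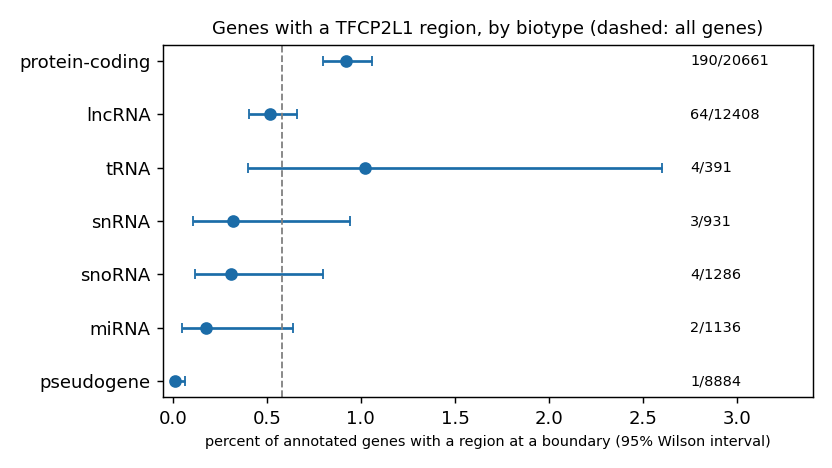
Percent of all annotated genes of each biotype on chromosomes 1 to 19 that had a boundary region (x axis), with 95% Wilson intervals and counts at the right; the dashed line is the share over all genes, 0.583%. Protein-coding genes lie above it and pseudogenes far below it. Genes that share a region are counted one by one.

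Gene pairs and repeated hits were seen at several loci. At 25 regions (12.1%, 8.36 to 17.3%) 5′ ends of genes on opposite strands lay in the same window, and 11 of these were in both lists. This count is a minimum, since strand was known for 186 of the 274 genes. Examples are Chmp5, of the ESCRT-III membrane-cutting machinery, with Bag1, a co-chaperone of Hsp70 (27 DMSO and 39 SX-682 fragments), and Atp5l, a subunit of mitochondrial ATP synthase, with the ubiquitin ligase gene Ube4a (51 and 56). Eps15, an endocytic adaptor gene, with Gm40225 had 34 and 37. Tk1, the thymidine kinase gene, with Afmid had 19 fragments in SX-682 alone, and Ewsr1, which encodes an RNA-binding protein, with Rhbdd3 had 26.

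Boundaries of 6 genes had 2 regions each. Both regions of Arid1a, a subunit of the SWI/SNF chromatin remodeller, were in both lists, 411 bp apart, with 22 and 36 fragments at one and 31 and 41 at the other. Cited2, a CBP/p300-binding coregulator gene, and Nr6a1, an orphan nuclear receptor gene, each had 1 region in both lists and 1 in SX-682 alone. So did Adamts4, whose second region had 23 fragments and lay 13328 bp from the first, beyond the opposite end of the gene. Fadd, the adaptor of death receptors, and Lamb2, a laminin chain gene, each had 2 regions in SX-682 alone.

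Counted over 14 lists of pathways and gene families, boundary regions were rare. Any protein-coding gene had one in 0.92% of cases. None of the 25 genes named by the study, none of the 6 CP2 and Grainyhead family genes, none of 46 cell cycle genes, none of 80 ribosomal protein genes and none of 14 histone genes had a region. The lists are selections, so each count holds only for the genes listed. Cdc27, which the cell cycle list leaves out, had a region in SX-682 alone (20 fragments). Insr, given above, was not in the AKT-mTOR list. One gene was found among 45 of the RAF-MAPK cascade, Spred2, an inhibitor of RAF activation (20 fragments, SX-682 alone). One was found among 47 of the β-catenin-independent Wnt pathway, Prickle1, a planar cell polarity gene (23, SX-682 alone). One was found among 30 of the AKT-mTOR pathway, Mlst8, a subunit of both mTOR complexes (20 in DMSO and 22 in SX-682, log2 ratio 0.31, -0.63 to 1.26).

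Of 34 antigen presentation genes, 1 had a region, Tapbp in DMSO alone, as given above, and of 23 melanocyte genes also 1, Slc45a2, a melanosomal transporter needed for pigmentation (30 fragments, SX-682 alone). Psmc3, an ATPase of the proteasome cap, was the only one of 50 proteasome genes (19, SX-682 alone), and Mrps36 the only one of 78 mitochondrial ribosome genes (16, SX-682 alone). Zinc finger genes had 7 of 415 (1.69%). Of these, Zfp609 and Zfp84 lay at regions in both lists, with 22 fragments in DMSO and 40 in SX-682 at Zfp84, and Zfp36l1, Zfp267, Zfp52, Zfp53 and Zfp324 at regions in SX-682 alone, with 27, 24, 28, 28 and 19 fragments, Zfp52 and Zfp53 sharing theirs. Solute carriers had 3 of 360 (0.833%), the last being Slc12a5, a chloride transporter gene (21, SX-682 alone). With so few members a list's share cannot be set apart from the background.

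The last comparison asked what the 66 promoter windows under a boundary region shared in sequence. Their GC content had a median of 62% (59.7 to 65.0%), against 53% (52.7 to 53.0%) for all 31396 windows, and the median number of CpG dinucleotides was 22 (quartiles 18 and 28.8) against 7 (3 and 21). By list the median GC content was 63% in both lists (28 windows), 60.5% in SX-682 alone (32) and 65.7% in DMSO alone (6). The CP2 motif was present in 3 of the 66 windows (4.55%, 1.56 to 12.5%), those of Ints4, Ankrd13a and Madd printed above. In Madd the motif lay outside the region. It was present in 3.48% of all windows, a share inside that interval. With 1 half-site relaxed to C, any base, A or G, and G, the shares were 25.8% (16.7 to 37.4%) and 25.1%. The unrelaxed motif was missing from 63 of the 66 windows. Sequence outside these windows, including that at genes without a window, was not analysed here.

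A GC box was present in 45 of the 66 windows (68.2%, 56.2 to 78.2%), against 36.0% of all windows. An ETS core was present in 15 (22.7%, 14.3 to 34.2%), against 9.0%. The TATA box (TATAAA) was present in 3 (4.55%, 1.56 to 12.5%), against 13.6%. The CCAAT box (CCAAT) was present in 33.3% against 37.3%, the E-box (CACGTG) in 9.09% against 7.14%, and the cAMP response element (TGACGTCA) in 4.55% against 1.83%. Motifs were searched on both strands and may overlap each other. Base composition differed along with these shares. Among windows with at least 60% GC, of which 40 lay under a region, the GC box was present in 82.5% (68.1 to 91.3%) against 80.6% of all 9423, the ETS core in 27.5% (16.1 to 42.8%) against 16.7%, and the CP2 motif in 2.50% (0.443 to 12.9%) against 4.09%. The relaxed form of the CP2 motif was present in 30% (18.1 to 45.4%) against 35.4%. Within this class each of these 4 intervals includes the background share, and GC content was not matched further.

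**Figure D5:**
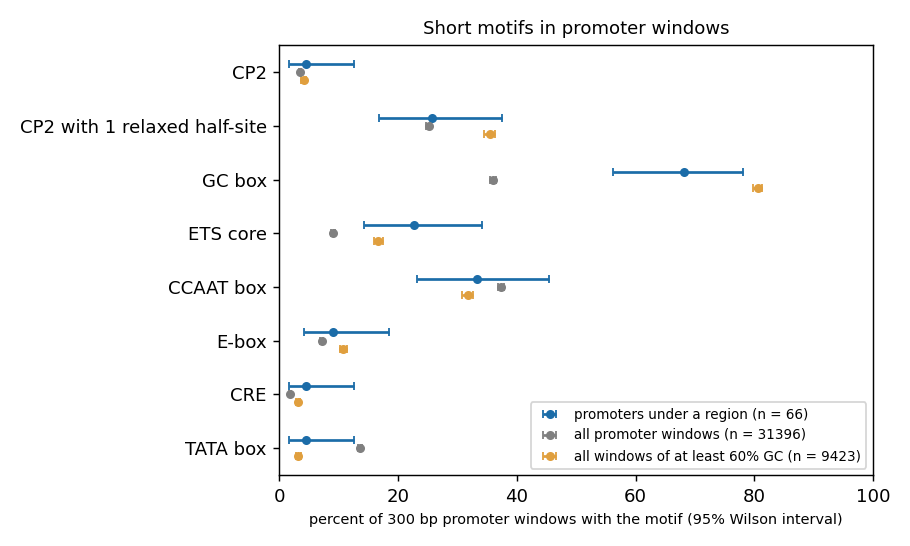
Percent of promoter windows of 300 bp (x axis) that hold each short motif, for the 66 windows under a boundary region, all 31396 windows, and the 9423 windows with at least 60% GC, with 95% Wilson intervals. The CP2 motif is near 4% in each set, while the GC box is in 68.2% of windows under a region and 36.0% of all.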

How the data were processed

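Per the file headers and the submitters' processing notes, the authors trimmed reads with cutadapt 4.1 and aligned them to mm10 with Bowtie2 2.4.1. They called peaks with MACS2 2.2.7.1 at a q-value cutoff of 0.01, with tags extended to 146 bp and MACS2's human genome size preset. The lowest background, in units of the scaled pileup, was 1.60 in DMSO and 1.10 in SX-682. It depends on that preset, which both lists share, and on the filtered IgG tags, which differed. The deposited signal is the pileup at the summit after scaling to the smaller library. The deposited fold enrichment is its ratio to background, and the deposited −log10 p and q-values come from the caller. Dividing pileup by the scaling factor gave fragments, whole within 0.00551.

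Gene boundaries came from RefSeq GRCm38.p6, strand and promoters from its promoter table, which held 186 of the 274 genes. Calculations used Python 3 scripts, tested on simulated data. Regions, gene lists and alternatives were chosen with earlier results of these data known. Named were the 10 strongest regions in both lists and in SX-682 alone, and every one in DMSO alone. Also named were the 5 highest and 5 lowest ratios, the regions at small RNA genes and those at listed genes. Gene pairs, loci with 2 regions and the genes Rny1, Rn7s2, Psenen-ps and Cdc27 were added after their values were seen. Printed promoters were the strongest with a window, outside chromosome 18; those with a CP2 motif were added after seeing the data. Beside the CP2 motif and its form with 1 relaxed half-site, 13 further motifs and a scan of 7-base words were looked at after seeing the data; 6 are in the report and the other 7 in the closing section. No test was run, with 1 library per group.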

Additional observations from a re-analysis of the deposited data

How the results depend on the processing

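Of 98 alternative values of 11 results, 86 stayed within the counting interval of the value reported. For the number of regions the limit was 1.5 times the value reported. Some alternatives could not change the value, and many reused nearly the same regions or windows, so the count of 86 does not measure robustness. The number of regions, for example, stays at 206 under 50% reciprocal overlap by construction. With 500 to 5000 bp as the limit the number of regions ran from 145 to 282. The median log2 ratio was reversed to -0.10 on the authors' scaled pileup and was 0.26 on their fold enrichment. The share of regions in both lists that were at least 1.5-fold higher in SX-682 was 23.9% on the authors' fold enrichment, 11.9% on their scaled pileup (chosen after seeing the data), 62.7% at a lower fold limit and 16.4% at 2-fold. The share at a 5′ end was 87.8% with protein-coding genes only and 91.5% without predicted gene models. The median fold enrichment was 8.06 at a −log10 q of at least 5 and 12.1 when no pseudocount was used, while the median of depth-normalised fragments was 0.824 per 1000000 tags. With 1 relaxed half-site the CP2 share was 25.8%. The planned motif search in 300 bases around each summit was not run, since it needs a genome sequence. No paired analysis was possible because there was a single library in every group. The limits are the single library per group, lists that give values only at called peaks, unequal tag lengths (130 bp for DMSO, 147 bp for SX-682) and IgG depths between the treatments, and summits of 13 to 92 fragments, which leave wide intervals on single ratios.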

Other observations

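Another 7 motifs were searched in the 66 promoter windows under a boundary region. With both CP2 half-sites relaxed the share was 66.7% (95% Wilson interval 54.7 to 76.8%), against 54.8% of all windows. Among windows with at least 60% GC it was 75% (30 of 40, 59.8 to 85.8%), against 81.0%. The NRF1 motif was present in 3.03%, against 0.968% of all windows, and the E2F motif (TTTCCCGC or TTTGGCGC) in 4.55%, against 1.56%. The YY1 motif (GCCATNTTG) was present in 1.52%, against 2.48%, and the AP-1 motif (TGACTCA or TGAGTCA) in 1.52%, against 5.26%. The Kaiso and ZNF143 motifs were present in 0 of 66 windows, against 0.462% and 0.296% of all windows.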
